A study of Homo sapiens with 18 samples.

Results

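The laminin chain genes LAMA3, LAMB3 and LAMC1 and the integrin subunit genes ITGA2, ITGA3, ITGA6, ITGB1, ITGB4 and ITGB6 were followed across 2 colorectal cancer cell lines and 3 treatments. They were chosen by name, as the non-control spots of the array that carry 1 of these 9 gene names among 36204 names. The 9 genes were read by 20 of 58717 non-control spots, or 11 of 50599 probes. LAMA3 and ITGA6 had 2 probes each, ITGB1 had 10 spots of 1 probe, and the other genes had 1 spot. Each gene is given by its brighter probe unless the other one is named.

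HT29 is a human colorectal adenocarcinoma line that is sensitive to oxaliplatin (OXA), a platinum drug that forms adducts on DNA. HTOXAR3 is a subline of it with acquired resistance, obtained by growing the parental cells in rising amounts of OXA. Each line was left untreated, exposed to OXA for 24 h, or exposed for 24 h to OXA with Curcumin, a plant polyphenol. OXA was used at 10 µM in HT29 and at 30 µM in HTOXAR3, and Curcumin at 10 µM in both, so that a comparison of the treated lines also compares 2 doses of OXA. There were 3 arrays for each of the 6 groups, labelled as biological replicates. No array had Curcumin alone, so its own effect cannot be read here. The resistant state is represented by this single subline.

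Laminins are trimers of 1 α, 1 β and 1 γ chain that build the sheet on which an epithelium rests. The α3 and β3 chains (LAMA3, LAMB3) belong to the epithelial laminin of anchoring contacts, whereas the γ1 chain (LAMC1) belongs to most other laminins. Integrins are α and β pairs in the cell membrane that hold such matrix proteins. The α6 and β4 subunits form the laminin receptor of hemidesmosomes, the contacts that tie keratin filaments to the basement membrane. The β1 subunit pairs with α2 in a receptor for collagen and laminin, with α3 in a receptor for laminin, and with α6. The β6 subunit pairs with αv (ITGAV) in an epithelial receptor that binds the latent form of TGF-β.

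The deposited intensities were background-corrected and quantile-normalized, and all levels below are log2 values of that normalized intensity. A level is comparable between groups for 1 probe, and not between probes. A gene was called higher or lower in a comparison where the Benjamini-Yekutieli (BY) adjusted p of the limma model over all names fell under 0.05 with a fold change over 1.2. All 11 probes of the 9 genes were well above background on all 18 arrays and 0 of their spot readings were saturated. The shares of all names given below are over all 36204, of which only 17447 besides the members were well above background on all arrays. No share among these is given. ITGB1 had 22 of its 180 spot readings set aside by the scanner's outlier flags, and no other member had any. The percentage of non-control spots well above background lay between 52.4% and 63.6% on the 18 arrays. Of 10 markers of colorectal epithelium, 8 were well above background on all arrays. Of 7 fibroblast markers 0 were, of 5 leukocyte markers 4 and of 4 endothelial markers 2. The summed linear intensity of the leukocyte markers was 4757 to 5503 in untreated HT29 and 3153 to 3832 after OXA, and in HTOXAR3 it was 5472 to 5751 and 4312 to 4583. After the combination it was 4195 to 4793 in HT29 and 4533 to 4640 in HTOXAR3. CD14 and CD79A were the brightest of them. With OXA the mean of CD14 went from 11.14 to 10.22 in HT29 and from 11.48 to 10.90 in HTOXAR3. That of CD79A went from 11.38 to 11.06 and from 11.28 to 11.16. PTPRC went from 6.29 to 6.28 and from 6.25 to 6.17, CD68 from 6.69 to 6.65 and from 6.74 to 6.79, and CD3E from 5.21 to 5.19 and from 5.08 to 5.49. The summed intensity of the epithelial markers was 738157 to 768007 in untreated HT29, 807469 to 841137 after OXA and 828571 to 881804 after the combination. In HTOXAR3 it was 762371 to 783603, 761210 to 769919 and 874247 to 876695. KRT18 and KRT19 were the brightest of these. KRT8, KRT18 and KRT19 had higher means in untreated HTOXAR3 than in untreated HT29, and the other epithelial markers had lower ones. LGALS4 was at 12.89 against 14.97, VIL1 at 10.45 against 12.06 and CDX2 at 4.93 against 7.10. CDX2 was not well above background on any treated HTOXAR3 array. The part of either marker class in the results was not tested.

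The sequences upstream of the laminin genes are shown because LAMA3, on its brighter probe, and LAMB3 rose with both treatments in both lines below. LAMC1 rose with both in HT29 and with neither in HTOXAR3. They are the 250 bases before a transcription start, from RefSeq on GRCh38.p14, and 7 of the 9 genes have such windows, 11 in all (none was read for ITGA3 and ITGB4). Capitals mark the AP-1 heptamer, TGACTCA or its reverse complement TGAGTCA, the only motif searched, on both strands, and one chosen after these windows had been read. The first window lies on the plus strand of chr18:23872770-23873019, the next on the minus strand of chr1:209651375-209651624 at 1 of 3 listed LAMB3 starts, and the last on the plus strand of chr1:183023170-183023419.
LAMA3: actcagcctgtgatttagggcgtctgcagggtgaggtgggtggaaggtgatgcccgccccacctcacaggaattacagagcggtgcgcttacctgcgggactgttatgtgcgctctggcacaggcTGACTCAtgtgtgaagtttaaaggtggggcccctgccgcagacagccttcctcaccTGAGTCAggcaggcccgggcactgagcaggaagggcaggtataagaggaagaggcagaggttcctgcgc
LAMB3: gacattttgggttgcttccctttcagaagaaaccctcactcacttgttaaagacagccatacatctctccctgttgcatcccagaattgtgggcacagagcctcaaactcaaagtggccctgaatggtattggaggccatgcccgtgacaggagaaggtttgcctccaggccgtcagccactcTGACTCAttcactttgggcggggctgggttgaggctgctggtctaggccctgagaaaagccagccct
LAMC1: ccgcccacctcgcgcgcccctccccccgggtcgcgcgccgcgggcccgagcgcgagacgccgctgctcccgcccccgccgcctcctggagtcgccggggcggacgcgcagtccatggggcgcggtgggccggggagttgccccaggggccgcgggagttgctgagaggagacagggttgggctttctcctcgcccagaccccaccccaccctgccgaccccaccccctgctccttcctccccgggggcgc
The LAMA3 window holds 2 matches, which begin 125 and 69 bases before the start, and the LAMB3 window 1 match, which begins 67 bases before it. The other 9 windows of the members hold none. Among all 35116 such windows of the table, 4.2% hold at least 1 match. A match of these letters is a description of the window and shows no binding.

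LAMA3, which encodes the α3 chain, was raised by OXA in both lines and was highest after OXA plus Curcumin. In untreated HT29 it read 11.05, 11.02 and 10.76 on the 3 arrays. After OXA it read 11.74, 11.84 and 11.88, and after OXA plus Curcumin 12.61, 12.34 and 12.41. The 3 HT29 groups did not overlap. Each array read the RNA of a whole culture, in which fewer cells of a kind and less RNA per cell cannot be told apart. In HTOXAR3 it read 11.19, 11.23 and 11.28 without drug, 12.49, 12.30 and 12.42 after OXA, and 12.71, 12.72 and 12.66 after OXA plus Curcumin. HTOXAR3 after the combination held the 3 highest readings, and the only neighbouring groups in the order of levels that overlapped were HTOXAR3 after OXA and HT29 after the combination.

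LAMB3, the β3 chain gene, took the same order of groups, in which none of the 5 neighbours overlapped. Its levels in HT29 were 13.62, 13.69 and 13.57 untreated, 14.47, 14.54 and 14.41 after OXA, and 15.36, 15.13 and 15.15 after OXA plus Curcumin. In HTOXAR3 they were 14.11, 14.12 and 14.18 untreated, 14.69, 14.79 and 14.71 after OXA, and 15.48, 15.45 and 15.46 after OXA plus Curcumin. In both lines every OXA reading was above every untreated one, and every reading of the combination was above every OXA one. Over the 18 arrays the levels of LAMA3 and LAMB3 had a Pearson r of 0.96, the highest of the 36 pairs of members, whose median was 0.12. These 18 arrays share their groups, and the correlation is given as a description.

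LAMC1, the γ1 chain gene, was the member that separated the 2 untreated lines most. It read 9.56, 9.66 and 9.66 in untreated HT29 and 11.14, 11.26 and 11.35 in untreated HTOXAR3. OXA took HT29 to 10.54, 10.65 and 10.70, and the combination to 10.01, 10.09 and 10.19. HTOXAR3 stayed at 11.22, 11.06 and 11.26 after OXA and was at 10.46, 10.48 and 10.45 after the combination. The untreated and OXA groups of HTOXAR3 were the only neighbours that overlapped, and all 9 HT29 readings lay below every untreated HTOXAR3 reading.

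Among the integrin α subunits, ITGA2 and ITGA3 were higher after treatment and ITGA6 was lower. ITGA2 (α2) read 6.36, 6.79 and 6.84 in untreated HT29, 7.24, 7.36 and 7.45 after OXA, and 7.52, 7.41 and 7.34 after the combination. In HTOXAR3 it read 6.73, 6.42 and 6.68 untreated, 7.68, 7.52 and 7.53 after OXA, and 7.65, 7.57 and 7.55 after the combination. All 12 treated readings were above all 6 untreated ones, and within each line the 2 treated groups overlapped.

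ITGA3 (α3) ran over a smaller range. It read 11.15, 11.14 and 11.19 in untreated HT29, 11.42, 11.45 and 11.49 after OXA, and 11.68, 11.48 and 11.57 after the combination. In HTOXAR3 it read 11.21, 11.38 and 11.29 untreated, 11.76, 11.89 and 11.92 after OXA, and 11.74, 11.79 and 11.79 after the combination. Again the 2 treated groups of a line overlapped and the untreated group lay below both.

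ITGA6 (α6) went the other way. In HT29 it read 12.90, 12.99 and 13.04 untreated, 12.44, 12.45 and 12.47 after OXA, and 12.48, 12.41 and 12.54 after the combination. In HTOXAR3 it read 12.58, 12.70 and 12.80 untreated, 12.40, 12.28 and 12.40 after OXA, and 12.19, 12.34 and 12.25 after the combination. Within each line the untreated readings lay above all treated ones, and the 2 treated groups overlapped. Over the 18 arrays its level had an r of -0.89 with that of LAMA3, the lowest of the 36 pairs.

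ITGB4 (β4), the partner of α6 in hemidesmosomes, was lower in HTOXAR3 than in HT29 in every condition. It read 14.68, 14.70 and 14.67 in untreated HT29, 14.90, 14.91 and 14.94 after OXA, and 14.73, 14.75 and 14.91 after the combination. In HTOXAR3 it read 14.17, 14.16 and 14.16 untreated, 14.47, 14.45 and 14.50 after OXA, and 14.12, 14.21 and 14.04 after the combination. All 9 HTOXAR3 readings were below all 9 HT29 readings.

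ITGB1 (β1) and ITGB6 (β6) were called in none of the 12 comparisons. The group means of ITGB1 ran from 11.79 in untreated HTOXAR3 to 12.28 in HT29 after the combination, and 4 of its 5 neighbouring groups overlapped. Within each line, however, every treated ITGB1 reading lay above every untreated one. Its differences from untreated cells were 0.32 and 0.38 after OXA and 0.33 and 0.29 after the combination, in HT29 and HTOXAR3, and all 4 passed with the Benjamini-Hochberg (BH) adjustment. Those of ITGB6 ran from 7.33 in HTOXAR3 after the combination to 7.98 in untreated HT29, with 4 of 5 neighbours overlapping as well.

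**Figure D1:**
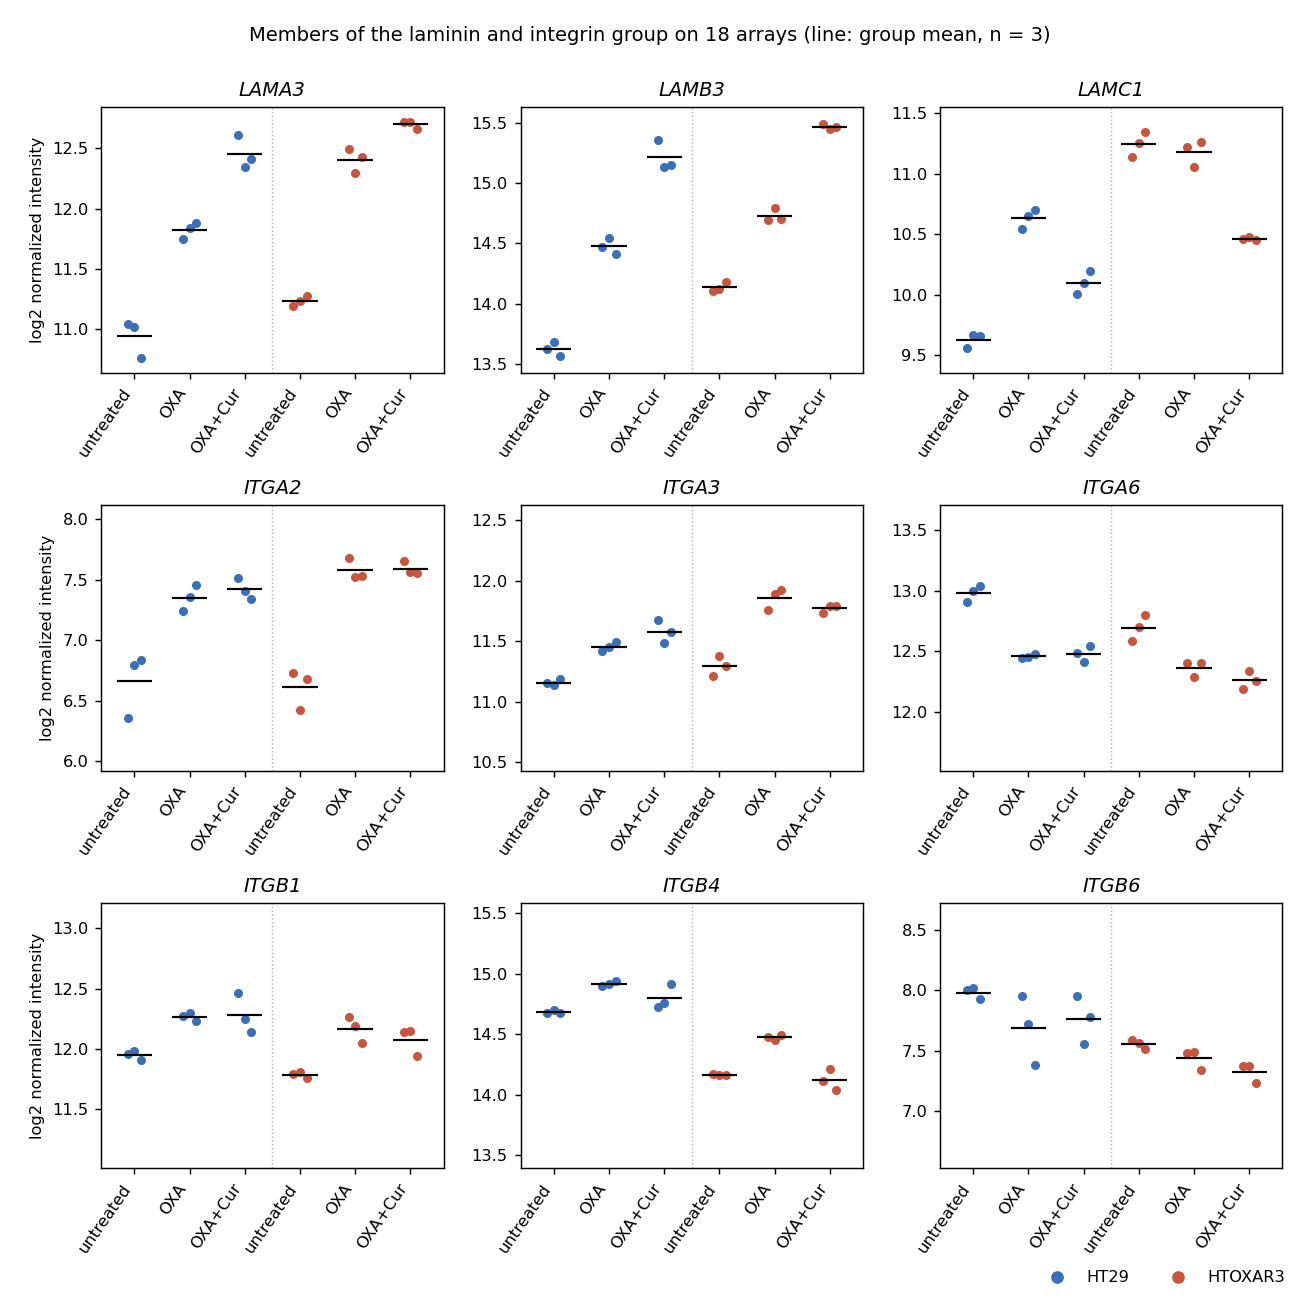
Levels of the 9 genes on the 18 arrays, with the log2 normalized intensity on the vertical axis (a span of 2.2 in every panel) and the 6 groups along the horizontal axis. Points are single arrays, blue for HT29 and red for HTOXAR3, and horizontal lines are means of 3 arrays. LAMA3 and LAMB3 climb from untreated to OXA to the combination in both lines, LAMC1 starts higher in HTOXAR3, at 11.25 against 9.63, and ITGA6 declines.

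The first comparison asked how the resistant subline differed from its parent without drug. LAMC1 was 3.08-fold higher in untreated HTOXAR3 (log2 difference 1.62, SE 0.08, adjusted p = 2.21e-08) and LAMB3 1.42-fold higher (0.51, SE 0.07, adjusted p = 0.000605). ITGB4 was 1.43-fold lower (-0.52, SE 0.06, adjusted p = 0.000153). Thus 2 of the 9 genes were called higher, where 6.26% of all names were, and 1 lower, where 5.28% were. The 6 other members were not called. Among these, ITGB6 differed by -0.42 (95% interval -0.69 to -0.16), LAMA3 by 0.29 (0.10 to 0.48) and ITGA6 by -0.28 (-0.43 to -0.13), and all 3 of them passed with the BH adjustment, which called 6 members. The median difference of the 9 was -0.05, beside -0.03 over all names. In a model of the 6 untreated arrays alone only the call of LAMC1 remained. Within the 2 slides that held both groups, the LAMC1 difference was 1.53 and 1.69, LAMB3 0.43 and 0.61, and ITGB4 -0.54 and -0.51.

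After OXA, LAMA3 and LAMB3 rose in both lines, and LAMC1 was called in HT29 and not in HTOXAR3. In HT29 the 3 laminin members rose, LAMC1 by 2.01-fold (1.00, SE 0.08, adjusted p = 2.83e-06), LAMA3 by 1.84-fold (0.88, SE 0.09, adjusted p = 3.62e-05) and LAMB3 by 1.80-fold (0.85, SE 0.07, adjusted p = 3.67e-06). ITGA2 rose 1.61-fold (0.69, SE 0.12, adjusted p = 0.00557) and ITGA3 1.23-fold (0.30, SE 0.07, adjusted p = 0.0365), and ITGA6 fell 1.44-fold (-0.52, SE 0.07, adjusted p = 0.000502). Hence 5 of 9 were called higher and 1 lower, against 8.33% and 7.62% of all names, and the median difference was 0.32 beside -0.01 over all names. The call of ITGA3 was lost when any 1 of the 6 arrays was left out, with differences of 0.28 to 0.31, and its adjusted p was 0.0543 with the replicate number as a block. In a model of only the arrays compared the calls of LAMB3 and LAMC1 remained.

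In HTOXAR3, OXA raised LAMA3 by 2.25-fold (1.17, SE 0.09, adjusted p = 7.13e-06), LAMB3 by 1.51-fold (0.59, SE 0.07, adjusted p = 0.000253), ITGA2 by 1.96-fold (0.97, SE 0.12, adjusted p = 0.000573) and ITGA3 by 1.47-fold (0.56, SE 0.07, adjusted p = 0.000349). ITGB4 rose 1.24-fold (0.31, SE 0.06, adjusted p = 0.0177) and ITGA6 fell 1.26-fold (-0.33, SE 0.07, adjusted p = 0.0334). LAMC1 was not called (-0.07, 95% interval -0.23 to 0.10). So 5 members were called higher, where 5.31% of names were, and 1 lower, where 4.94% were, with a median of 0.38 beside 0.01 over all names. The call of ITGB4 was lost when any 1 of the 6 arrays was left out (0.30 to 0.32), and under both scalings to the 75th percentile (0.28 and 0.26). That of ITGA6 was lost on leaving out any of the 3 OXA arrays or untreated replicate 2 or 3 (-0.35 to -0.28) and with scaling of the normexp values to the 75th percentile (-0.29). With only the arrays compared the call of LAMA3 remained.

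Whether the lines responded differently to OXA was tested with an interaction term, at the doses stated. LAMC1 was the only member called, with a response 1.07 lower in HTOXAR3 (SE 0.11, adjusted p = 0.000593), where 1.01% of all names were called in either direction. For the other 8 members the 95% intervals of the difference in response lay between -0.46 and 0.64. The untreated arrays of both lines enter this difference and the comparison of the untreated lines alike, with opposite signs.

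OXA plus Curcumin against untreated cells gave the largest rises of the laminin pair. In HT29, LAMB3 rose 3.00-fold (1.58, SE 0.07, adjusted p = 9.97e-09) and LAMA3 2.85-fold (1.51, SE 0.09, adjusted p = 1.72e-07), while LAMC1 rose 1.39-fold (0.47, SE 0.08, adjusted p = 0.0026). ITGA2 rose 1.69-fold (0.76, SE 0.12, adjusted p = 0.00208), ITGA3 rose 1.34-fold (0.42, SE 0.07, adjusted p = 0.0018) and ITGA6 fell 1.41-fold (-0.50, SE 0.07, adjusted p = 0.000622). These were 5 of 9 called higher and 1 called lower, against 9.56% and 9.02% of all names, with a median of 0.42 beside -0.03. ITGB4 differed by 0.11 (95% interval -0.01 to 0.24) and ITGB1 by 0.33 (0.15 to 0.52), and neither was called. With only the arrays compared the calls of LAMA3 and LAMB3 remained.

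In HTOXAR3 the combination raised LAMA3 by 2.76-fold (1.46, SE 0.09, adjusted p = 3.05e-07), LAMB3 by 2.51-fold (1.33, SE 0.07, adjusted p = 6.81e-08), ITGA2 by 1.97-fold (0.98, SE 0.12, adjusted p = 0.000221) and ITGA3 by 1.39-fold (0.48, SE 0.07, adjusted p = 0.000655). LAMC1 fell 1.72-fold (-0.79, SE 0.08, adjusted p = 2.75e-05) and ITGA6 1.35-fold (-0.44, SE 0.07, adjusted p = 0.00224). That made 4 of 9 higher and 2 lower, against 8.82% and 8.64% of all names, with a median of 0.29 beside -0.01. With only the arrays compared those of LAMA3, LAMB3, LAMC1 and ITGA2 remained. The interaction term called LAMC1 alone among the members (-1.26, SE 0.11, adjusted p = 0.000446), where 0.856% of all names were called. LAMC1 thus moved in opposite directions in the 2 lines under the combination, and the difference in response was -1.13 and -1.42 within the 2 slides that held all 4 groups. The responses of the other 8 members differed between the lines by amounts whose 95% intervals lay between -0.46 and 0.59.

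Against OXA alone, OXA with Curcumin gave more LAMB3 and less LAMC1 in both lines, and the call of LAMA3 in HT29 and that of ITGB4 in HTOXAR3 were each made in 1 line. In HT29, LAMB3 was 1.67-fold higher with Curcumin (0.74, SE 0.07, adjusted p = 8.41e-05), LAMA3 1.55-fold higher (0.63, SE 0.09, adjusted p = 0.00297) and LAMC1 1.44-fold lower (-0.53, SE 0.08, adjusted p = 0.00418). All 6 integrin subunits went uncalled, with differences of -0.12 to 0.13. The 2 members called higher and 1 lower stood against 3.14% and 2.39% of all names, and the median was 0.07 beside -0.02. In HTOXAR3, LAMB3 was 1.66-fold higher (0.74, SE 0.07, adjusted p = 5.44e-05), LAMC1 1.65-fold lower (-0.72, SE 0.08, adjusted p = 0.00021) and ITGB4 1.28-fold lower (-0.35, SE 0.06, adjusted p = 0.00764). LAMA3 differed by 0.29 (95% interval 0.11 to 0.48, adjusted p = 0.349). The 1 member called higher and 2 lower stood against 4.43% and 4.41% of all names, and the median was -0.09 beside -0.02. The call of ITGB4 was lost without replicate 3 of the combination in HTOXAR3 (-0.31). In models of only the arrays compared all 6 calls were lost, with adjusted p of 0.309 and 0.0563 for LAMB3 and 0.598 and 0.0903 for LAMC1 in HT29 and HTOXAR3, and that of LAMA3 in HT29 was also lost with the mean of both probes (0.34, adjusted p = 0.0804).

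None of the 9 genes was called for a line difference in the effect of adding Curcumin, nor with the BH adjustment, and 0.135% of all names were called. At an unadjusted p below 0.05 there were 3 (LAMA3, ITGA3 and ITGB4), all with a lower value in HTOXAR3. For LAMB3 the effect of Curcumin was the closest between the lines, with a difference of -0.0004 and a 95% interval of -0.20 to 0.20.

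**Figure D2:**
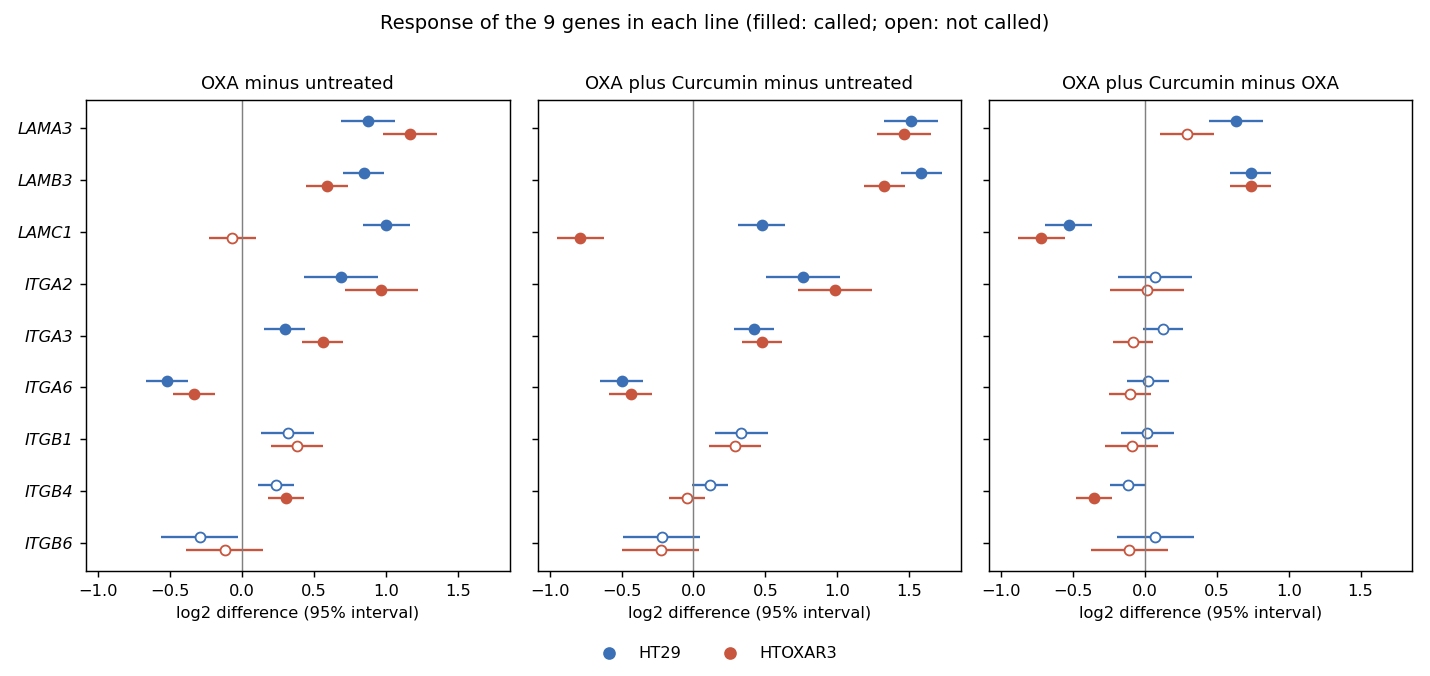
Log2 differences of the 9 genes for OXA against untreated, OXA plus Curcumin against untreated, and OXA plus Curcumin against OXA, in HT29 (blue) and HTOXAR3 (red). Bars are 95% intervals of the limma model over 18 arrays, filled points were called and open points were not. LAMC1 lies on opposite sides of 0 in the lines under the combination, at 0.47 and -0.79, and in the panel on adding Curcumin LAMB3 is at 0.74 in both lines.

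The lines were also compared after the same kind of treatment, which includes the 2 doses of OXA. After OXA, HTOXAR3 had more LAMA3 on the brighter probe (1.5-fold, 0.58, SE 0.09, adjusted p = 0.0018), LAMC1 (1.47-fold, 0.55, SE 0.08, adjusted p = 0.000893) and ITGA3 (1.32-fold, 0.40, SE 0.07, adjusted p = 0.0036). The LAMA3 difference turned to -1.31 (adjusted p = 1.95e-05) on the other probe and to -0.36 (adjusted p = 0.0259) with the mean of both. HTOXAR3 had less ITGB4 (1.36-fold, -0.44, SE 0.06, adjusted p = 0.000549). These 3 higher and 1 lower stood against 7.14% and 6.98% of all names, with a median of 0.23 beside 0.00. After the combination, ITGB4 was 1.60-fold lower (-0.68, SE 0.06, adjusted p = 1.05e-05) and LAMC1 1.29-fold higher (0.36, SE 0.08, adjusted p = 0.0291), against 6.92% and 6.95% of names called in those directions. The median was 0.17 beside 0.01. The call of LAMC1 there was lost when any of the 3 HTOXAR3 arrays, or replicate 1 or 2 of HT29, was left out (0.32 to 0.37). With only the arrays compared, all calls between the treated lines were lost. By the brighter probe of each gene, LAMC1 and ITGB4 were the members called between the lines in all 3 conditions, and so was the dimmer LAMA3 probe.

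**Figure D3:**
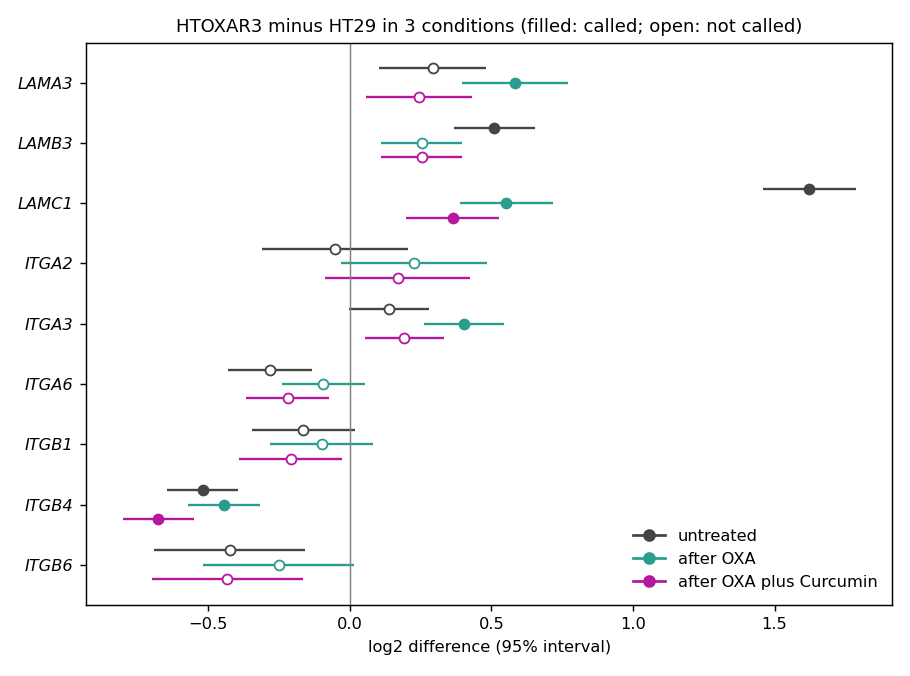
Log2 difference between HTOXAR3 and HT29 for the 9 genes, untreated (dark grey), after OXA (green) and after OXA plus Curcumin (purple). Bars are 95% intervals, filled points were called and open points were not. The LAMC1 difference is 1.62, 0.55 and 0.36 in the 3 conditions, and that of ITGB4 stays below 0 throughout, at -0.52, -0.44 and -0.68.

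The 2 probes of LAMA3 did not give the same picture. The brighter one lies at chr18:21534735-21534794 of GRCh37 and is assigned to 4 RefSeq transcripts in the array's annotation. The dimmer one lies 158743 bases upstream, at chr18:21375992-21376051, on the plus strand like the other, and has no RefSeq transcript listed there. The first 30 of the 60 bases of each are shown because their readings differ.
Brighter LAMA3 probe: tctaattttgaattctgaccatggataccc
Dimmer LAMA3 probe: agtgaaaaggtggccatctacaagccagaa
On the dimmer probe HT29 read 7.81, 8.13 and 8.06 untreated, 8.16, 8.40 and 7.86 after OXA, and 8.29, 8.20 and 8.10 after the combination. HTOXAR3 read 6.82, 6.75 and 6.71 untreated, 6.86, 6.88 and 6.76 after OXA, and 7.51, 7.69 and 7.69 after the combination. All HTOXAR3 readings were below all HT29 readings, and the 3 HT29 groups overlapped.

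By the fit over all probes, the dimmer LAMA3 probe had a 2.37-fold lower reading in untreated HTOXAR3 than in its parent (-1.24, SE 0.12, adjusted p = 3.97e-05), where the brighter one was not called. After OXA it was 2.47-fold lower in HTOXAR3 (-1.31, SE 0.12, adjusted p = 1.95e-05), opposite to the brighter probe. After the combination it was also lower in HTOXAR3 (-0.56, SE 0.12, adjusted p = 0.0337), where the brighter one was not called (0.24). It was called for neither OXA response, at 0.14 in HT29 and 0.08 in HTOXAR3. The combination raised it in HTOXAR3 (0.88, SE 0.12, adjusted p = 0.000706), as did adding Curcumin to OXA there (0.80, SE 0.12, adjusted p = 0.00397), and it was not called for either comparison in HT29, at 0.20 and 0.06. The line difference of the dimmer probe was 0.68 (SE 0.17, adjusted p = 0.548) in the response to the combination. In the effect of adding Curcumin it was 0.74 (SE 0.17, adjusted p = 0.86). Neither was called, and the brighter probe had -0.05 and -0.34. The statements on LAMA3 above therefore hold for the brighter probe.

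**Figure D4:**
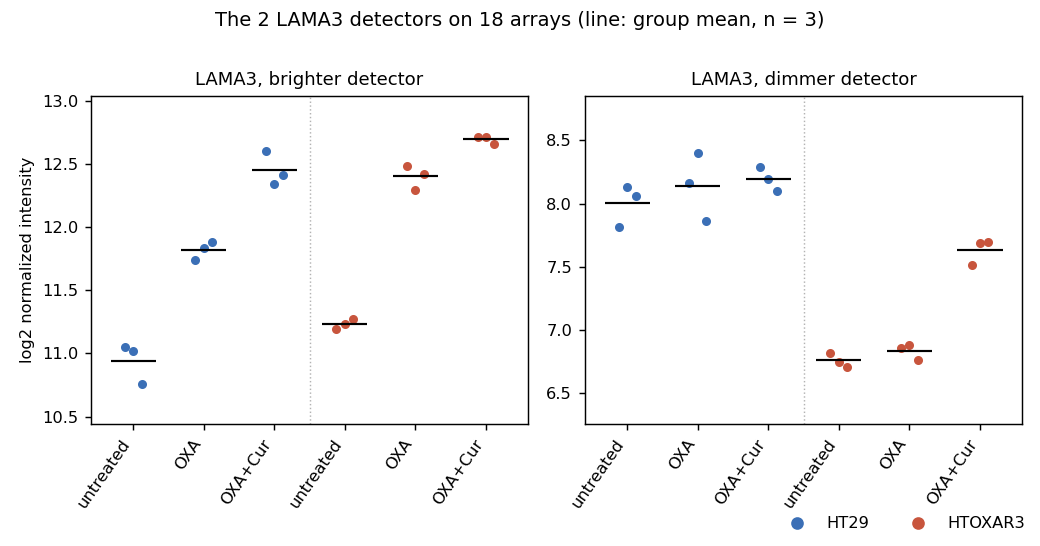
Levels on the brighter (left) and the dimmer (right) LAMA3 probe (detector), with the log2 normalized intensity on the vertical axis, the 6 groups along the horizontal axis, points for single arrays and lines for means of 3. The brighter probe rises with OXA in both lines. On the dimmer probe untreated HTOXAR3 (mean 6.76) sits below untreated HT29 (mean 8.0), and the HTOXAR3 mean reaches 7.63 with the combination.

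The 2 probes of ITGA6, in contrast, ran alike. The dimmer one, at chr2:173369203-173369262 on the plus strand, had means of 12.28, 11.64 and 11.64 in HT29 untreated, after OXA and after the combination, and of 11.82, 11.53 and 11.33 in HTOXAR3. It was called lower in untreated HTOXAR3 than in HT29 (-0.45, SE 0.08, adjusted p = 0.00625), where the brighter one missed the threshold. For OXA in HTOXAR3 it was not called (-0.29, SE 0.08, adjusted p = 0.168).

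Other laminin chains came from a list of further laminin genes. LAMB2, the β2 chain gene, was 2.00-fold higher in untreated HTOXAR3 (1.00, SE 0.09, adjusted p = 2.48e-05). It rose 2.56-fold with OXA in HT29 (1.36, SE 0.09, adjusted p = 1.06e-06) and was not called in HTOXAR3, and the interaction term called that difference (-0.94, SE 0.13, adjusted p = 0.0109). Its basal difference, its rise with OXA in HT29 and its interaction had the same signs as those of LAMC1. With the combination, LAMB2 rose in both lines (1.38 and 0.45), whereas LAMC1 fell in HTOXAR3, and the interaction term called LAMB2 there too (-0.93, SE 0.13, adjusted p = 0.0159), with the sign of the LAMC1 term. LAMA2 (0.68) was also higher in untreated HTOXAR3.

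Among 20 other integrin subunits, 2 were called higher and 3 lower in untreated HTOXAR3, where 6.26% and 5.28% of all names were. ITGAM was 1.07 and ITGA10 0.86 higher, and ITGA1 (-0.90), ITGB7 (-0.63) and ITGAV (-0.34) were lower. ITGAV, the αv partner of β6, rose with the combination by 0.65 in HT29 (SE 0.06, adjusted p = 1.59e-05) and by 0.55 in HTOXAR3 (SE 0.06, adjusted p = 8.69e-05), while ITGB6 was not called in either line (-0.22 and -0.23). ITGA7 also rose in both (0.52 and 0.49), and ITGA10 in HTOXAR3 (0.82). In all, 2 of the 20 rose with the combination in HT29 and 3 in HTOXAR3, beside 9.56% and 8.82% of all names, and 0 fell in either, beside 9.02% and 8.64%. After OXA alone 4 rose in HT29 and 5 in HTOXAR3, beside 8.33% and 5.31% of all names, and 0 fell in either, beside 7.62% and 4.94%. At such shares a count of 0 among 20 says little about the list. ITGAV was among those that rose with OXA alone, by 0.68 in HT29 and 0.58 in HTOXAR3.

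Of 7 hemidesmosome and other laminin-binding proteins, 0 rose with the combination in either line, beside 9.56% of all names in HT29 and 8.82% in HTOXAR3, and 2 fell in each, beside 9.02% and 8.64%. Between the untreated lines 0 were higher and 1 lower, beside 6.26% and 5.28%. In so short a list a count of 0, 1 or 2 says little about the list. COL17A1, the transmembrane collagen of hemidesmosomes, was 1.73-fold lower in untreated HTOXAR3 (-0.79, SE 0.08, adjusted p = 5.10e-05), as was ITGB4. It fell with the combination in HTOXAR3 (-0.60, SE 0.08, adjusted p = 0.000449). PLEC, whose protein plectin binds β4 to keratin filaments, fell with the combination in HT29 (-0.82, SE 0.09, adjusted p = 5.03e-05) and was not called in HTOXAR3. DAG1, which encodes dystroglycan, fell in both lines (-0.28 and -0.50). With OXA alone, 1 of the 7 rose and 2 fell in HT29, beside 8.33% and 7.62% of all names, and 0 were called in HTOXAR3, beside 5.31% and 4.94%. DST, which encodes another plakin of hemidesmosomes, rose in HT29 (0.52, SE 0.07, adjusted p = 0.000931), and DAG1 fell (-0.30). PLEC fell 2.36-fold in HT29 (-1.24, SE 0.09, adjusted p = 1.16e-06), and the interaction term called the difference between the lines (1.2, SE 0.12, adjusted p = 0.000593).

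Of 16 other basement membrane components, 0 were called higher and 3 lower in untreated HTOXAR3, beside 6.26% and 5.28% of all names. The 3 were HSPG2 (perlecan, -0.96), AGRN (agrin, -0.66) and COL4A2 (-0.64). With the combination 3 rose and 3 fell in each line, where 9.56% and 9.02% of all names did in HT29 and 8.82% and 8.64% in HTOXAR3. COL7A1, the anchoring fibril collagen, rose by 1.03 in HT29 and 1.00 in HTOXAR3, on 5 of 6 arrays well above background in each case. NTN4 (0.53 and 0.93) and COL4A2 (0.35 and 0.52) rose too. COL18A1 fell in both lines (-1.91 and -1.49). FREM2 fell by 1.45 on the log2 scale in HT29, and in HTOXAR3, where it was not well above background on any combination array, untreated cells had at least 2.12-fold more (adjusted p = 0.0207). AGRN fell in HT29 (-0.53) and FRAS1 in HTOXAR3 (-0.48). With OXA alone 1 of the 16 rose and 3 fell in each line, beside 8.33% and 7.62% of all names in HT29 and 5.31% and 4.94% in HTOXAR3. COL18A1 fell with OXA alone by 2.51 on the log2 scale in HT29 and by 1.22 in HTOXAR3.

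Integrin adaptors and adhesion complex genes, 25 in all, were called higher in 8 cases and lower in 1 with the combination in HT29, and in 7 and 1 in HTOXAR3. The shares over all names were 9.56% and 9.02% in HT29, and 8.82% and 8.64% in HTOXAR3. FLNA (filamin A) rose by 1.54 and 0.91, VCL (vinculin) by 1.03 and 0.83, and ZYX (zyxin) by 0.79 and 0.81. The median of this list was 0.15 in HT29 and 0.17 in HTOXAR3, beside -0.03 and -0.01 over all names. FERMT1 (kindlin-1) fell in HT29 (-0.42) and LIMS2 in HTOXAR3 (-0.97). With OXA alone 9 of the 25 were higher and 0 lower in HT29, beside 8.33% and 7.62% of all names. In HTOXAR3 7 were higher and 0 lower, beside 5.31% and 4.94%. FLNA then rose by 1.63 and 0.93, VCL by 1.22 and 0.79, and ZYX by 0.84 and 0.66. Adding Curcumin to OXA gave 0 higher and 1 lower in HT29, beside 3.14% and 2.39%, and 0 and 3 in HTOXAR3, beside 4.43% and 4.41%. Between the untreated lines 5 were higher and 2 lower, beside 6.26% and 5.28% of all names. LIMS2, a partner of the integrin-linked kinase, was 17.7-fold lower in HTOXAR3 (-4.15, SE 0.11, adjusted p = 4.33e-11), and PTK2, the focal adhesion kinase gene, was lower as well (-0.73). FLNA (0.71), TNS3 (0.59) and VCL (0.46) were higher.

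Of 10 further ligands, 2 were higher and 0 lower in untreated HTOXAR3, beside 6.26% and 5.28% of all names. SPP1 (osteopontin) was not well above background in untreated HT29, and HTOXAR3 had at least 30.4-fold more (group means 9.09 and 3.95, adjusted p = 2.58e-10). LTBP1, which binds latent TGF-β, was higher by 1.16. With the combination 2 were higher and 2 lower in HT29, beside 9.56% and 9.02% of all names, and 1 and 2 in HTOXAR3, beside 8.82% and 8.64%. In HT29, SPP1 was at least 2.18-fold higher (adjusted p = 0.000154) and TGFB1 rose by 0.66, whereas TNC (tenascin-C, -1.37) and LTBP1 (-1.16) fell, LTBP1 with 4 of 6 arrays well above background. In HTOXAR3, TGFB1 rose by 0.55, and LTBP1 (-1.39) and TNC (-1.28) fell, TNC with 5 of 6 arrays well above background. With OXA alone 2 were higher and 1 lower in HT29, beside 8.33% and 7.62% of all names, and 1 and 2 in HTOXAR3, beside 5.31% and 4.94%. TGFB1 rose with OXA alone by 0.65 in HT29 and 0.64 in HTOXAR3. These lists, other than that of the laminins, are reported by their counts, and only genes among the 3 highest and 3 lowest called for the untreated lines and for the combination are named. Exceptions are the OXA values of LAMB2, PLEC, DST, DAG1, ITGAV, COL18A1, FLNA, VCL, ZYX and TGFB1 and the interactions of LAMB2 and PLEC, singled out after they were seen.

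The genes whose levels over the 18 arrays ran most like those of the members were found among 17447 other names well above background on all arrays, as a description. They were TESK1 for LAMA3 (r = 0.98), CREB3 for LAMB3 (0.99), GNG10 for LAMC1 (0.96), AFF4 for ITGA2 (0.98), UFSP2 for ITGA3 (0.96), FAM86C2P for ITGA6 (0.97), ARHGEF28 for ITGB1 (0.93), BTN3A2 for ITGB4 (0.98) and FOXN2 for ITGB6 (0.95). The 18 points are 6 groups of 3 arrays, so each r includes the differences between the groups.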

How the data were processed

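Total RNA of 18 cultures was labelled with Cy3 and hybridised to one-colour Agilent human arrays. The authors deposited the scanner output of each array, whose spot and local background intensities are linear and not normalized. The mean intensity was corrected with normexp (offset 0), log2-transformed and quantile-normalized, as in the study's methods, which name no offset. Spots with an outlier flag were left out and replicate spots averaged, and each name was given by its brightest probe. A limma 3.58.1 model (R 4.3.3, data.table version 1.17.8) with 6 group terms was fitted over all 36204 names, with 12 residual degrees of freedom, 12 contrasts and the BY adjustment. It was tested on simulated data. Figures used Python 3.11.15, pandas 2.3.3 and matplotlib 3.10.9. The array's annotation places the probes on GRCh37, whereas the upstream windows of the laminin genes are located on GRCh38.p14. The members, lists, tests and named-gene rule (all members, and from each list up to 3 genes called in each direction by size of difference that were well above background on every array of a group) were chosen with earlier results of these data known. Same-numbered arrays deviated together (every r above 0.1) for OXA in HT29 (0.117 to 0.242) and for adding Curcumin in HTOXAR3 (0.109 to 0.195), but in no other comparison, and no pairing is described in the labels or methods. The authors' normalized table, whose lines name no probe, was not used. The number of arrays limits the precision. One listed gene, and the counts of the list that holds it, are not reported here.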

Additional observations from a re-analysis of the deposited data

Results flagged for a closer look

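The response of LAMC1 to OXA differed between the lines by the interaction term (-1.07, 95% interval -1.3 to -0.84, adjusted p = 0.000593 by limma), being 1.00 in HT29 and -0.07 in HTOXAR3. Its response to OXA plus Curcumin differed by -1.26 (95% interval -1.49 to -1.03, adjusted p = 0.000446 by limma), being 0.47 in HT29 and -0.79 in HTOXAR3. Leaving out any 1 of the 12 arrays behind each value kept both calls, with differences of -1.13 to -1.01 and of -1.31 to -1.21.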

How the results depend on the processing

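The 9 genes gave 41 called differences in the 12 comparisons. The LAMA3 difference between the lines after OXA was reversed, at -1.31 with the dimmer probe and -0.36 with the mean of both probes, and no other reversed under the alternatives run, of which BH, the fold minimum, the replicate block and the models of only the arrays compared leave the difference itself as it was. The mean of both also ended the LAMA3 call for adding Curcumin in HT29 (0.34, adjusted p = 0.0804). Normexp offsets of 16 and 50 and the slide as a block kept all 41 calls, and the replicate number as a block ended only that of ITGA3 for OXA in HT29 (adjusted p = 0.0543). BH adjustment and leaving out dim probes kept all 41 as well. BH could lose none, as its adjusted p is never above the BY one. The dim-probe filter could remove no member, as all their probes were well above background. A fold minimum of 2 left 1 of 3 members called between the untreated lines, 1 of 6 for OXA in either line, 2 of 6 for the combination in either line, and 0 for adding Curcumin and for the lines after either treatment. Models of only the arrays compared, which have fewer residual degrees of freedom, left 1 between the untreated lines, 2 and 1 for OXA in HT29 and HTOXAR3, 2 for the combination in HT29, and 0 for adding Curcumin and for the treated lines. Between the untreated lines BH called 6 members and the mean of all probes 5. Leaving out 1 array gave 1 to 2 calls between the lines after the combination. Over all names, BH gave 1.34 to 6.59 times as many calls, the fold minimum 0.110 to 0.489 times, models of only the arrays compared 0.00799 to 0.593 times, and the offset of 50 1.07 to 3.63 times. The dim-probe filter reached 1.65 times, the offset of 16 reached 1.61 times, and the replicate block went down to 0.633 times. Scaling to the 75th percentile moved the median difference of all names by -0.16 to 0.15, and the processed signal by -0.20 to 0.12. The 3 arrays a group limit which small differences pass.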
